A study of Homo sapiens with 8 samples.

Results

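The comparison described here is between Jurkat cells that lack CBAP and express GFP (CBAP-KO+GFP) and cells of the same knockout background in which CBAP was put back (CBAP-reconstituted). It rests on 4 of the 8 RNA-seq libraries of the series, 2 of each kind, chosen by their labels, and on 11331 of the 13453 genes in the table, those whose FPKM averaged 1 or more in these 4 libraries. Jurkat is an established human line of T-cell acute lymphoblastic leukaemia (T-ALL). Both kinds of cells therefore carry the CRISPR/Cas9 deletion of CBAP. Per the study, the reconstituted cells express CBAP as a fusion with GFP, while the CBAP-KO+GFP cells express GFP alone. The knockout was made by sorting single GFP-positive cells into clones, so a difference made by CBAP and a difference between grown-out lines cannot be told apart here, and the labels do not say which clones the libraries came from. The other 4 libraries, 2 of Jurkat cells with a control shRNA (sh-Ctrl) and 2 with an shRNA against CBAP (sh-CBAP), served as a second comparison that shares no library with this one. Separate cultures are not stated for the libraries of a pair either, so p-values here measure only the spread between these libraries, which may be technical.

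As background, CBAP is a membrane-associated protein first known as a partner of a cytokine receptor chain, and in T cells it has been linked to chemokine-driven adhesion and to growth signalling. The kinase AKT phosphorylates the TSC complex, which releases the GTPase Rheb to activate mTORC1. Active mTORC1 in turn favours ribosome production, protein synthesis, glycolysis and lipid synthesis, largely through MYC, HIF1α and SREBP. The integrated stress response acts on genes through the transcription factor ATF4, and the CDK inhibitors are known brakes on the cell cycle.

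The gene of CBAP is TMEM102 (chromosome 17, 7338754 to 7340998, plus strand, GRCh37). It was listed at 0 FPKM in all 4 libraries, the reconstituted cells included, against 4.07 and 4.74 in the sh-Ctrl and 2.69 and 2.89 in the sh-CBAP libraries, so the deleted gene gave no check of the labels. FPKM is the number of fragments scaled to the length of the gene's exons and to the fragments mapped, and the depth behind it is unknown. A listed 0 in this table is not always a low level: 67 of the 10315 genes with an FPKM of at least 1 in every shRNA library were listed at 0 in all 4 libraries used here. The reconstituted libraries were closer to each other (r = 0.992 across all tested genes) than the CBAP-KO+GFP libraries (r = 0.923), and without the genes with a listed 0 the values were 0.999 and 0.993 over 10842 genes, which are not independent replicates. All 15 T-lymphoblast markers reached an FPKM of 1. They summed to 2053 and 2504 in CBAP-KO+GFP and to 1674 and 1667 in reconstituted cells. By the test given below 7 of the 15 were called higher (46.7%) and 4 lower (26.7%), beside 34.3% and 34.8% of all genes. CD3E, which was not called, entered these sums with 530 and 1022 against 397 and 384. Of the markers of other cells, 1 of 8 for B cells, 1 of 10 for myeloid cells, 3 of 8 for erythroid cells and 3 of 10 for epithelial and stromal cells were in the table. The B-cell gene among them was CD79A, a chain of the B-cell receptor complex, at 9.60 and 9.91 in CBAP-KO+GFP and 0.732 and 1.09 in reconstituted cells. It had 22.5 and 14.5 FPKM in the sh-Ctrl and 13.0 and 15.9 in the sh-CBAP libraries, so the reconstituted libraries were the lowest of the 8. In such bulk RNA, fewer cells of a type and less RNA per cell cannot be told apart.

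The 2 kinds of cells differed at most genes. By limma on log2(FPKM + 1) with Benjamini-Hochberg adjustment, 7834 of the 11331 genes (69.1%) passed an adjusted p of 0.05, which is what "called" means below. CBAP-KO+GFP cells had 3892 genes (34.3%) with higher and 3942 (34.8%) with lower levels, and the libraries of the groups did not overlap at 9811 genes (86.6%). The middle of the distribution was narrow, with quartiles of the log2 change at -0.36 and 0.35 and a median of 0.00. A change of at least 2-fold as well was seen in 623 genes (5.5%) that were higher and 544 (4.8%) that were lower. Leaving out the first or the second reconstituted library brought the called genes to 5208 and 5268 and those that were higher to 2456 and 2559. Counts of list members below are to be read against the shares of all genes. Changes on the log2(FPKM + 1) scale understate those of genes with low FPKM.

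**Figure D1:**
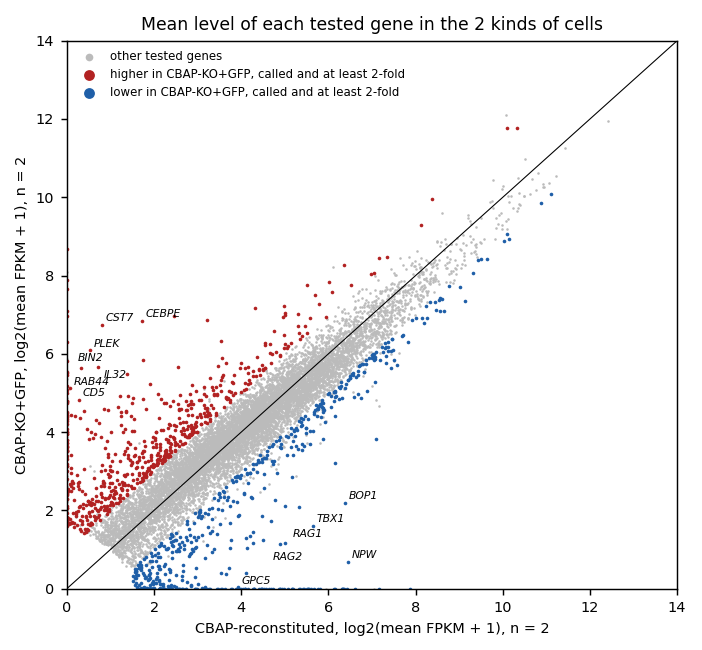
Mean level of each of the 11331 tested genes in reconstituted (x axis) and CBAP-KO+GFP cells (y axis), as log2(mean FPKM + 1) of 2 libraries each, with genes called and at least 2-fold apart in red (higher, 623) and blue (lower, 544). The points on the axes at 0 are genes listed at 0 in both libraries of a kind.

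The genes with the largest rise in CBAP-KO+GFP cells were nearly silent in the reconstituted cells. CST7 (chromosome 20, 24929905 to 24940564, GRCh37), which encodes cystatin F, an inhibitor of lysosomal proteases in immune cells, had 107 and 106 FPKM against 0.764 and 0.728, a log2 change of 5.94 (SE 0.032, adjusted p = 3.13e-05). PLEK, which encodes pleckstrin, a protein kinase C substrate of blood cells, had 66.7 and 67.7 against 0.359 and 0.522, a change of 5.57 (SE 0.070, adjusted p = 7.55e-05). BIN2, a membrane-curving protein of blood cells, had 48.6 and 48.9 against 0.332 and 0.186. In each of these genes both CBAP-KO+GFP libraries lay far above both reconstituted ones, with a ratio of the mean FPKM of 143, 153 and 188.

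Several of the other leading genes are best known from myeloid or immune cells. CEBPE, a transcription factor of granulocyte maturation, rose by 5.12 on the log2 scale, from 2.29 and 2.28 to 114 and 113 FPKM. IL32, an inflammatory cytokine, had 51.4 and 47.4 against 0.509 and 0.760 FPKM, and CLEC11A, a growth factor for blood progenitors, had 143 and 104 against 4.78 and 4.14. CD5, the surface glycoprotein that dampens T-cell receptor signals (chromosome 11, 60869961 to 60895324), had 27.1 and 27.4 FPKM against 0.180 and 0.231. The remaining leading genes were RAB44, a large Rab GTPase, COL17A1, a collagen of epithelial hemidesmosomes, MFAP4, an extracellular matrix protein, C19orf77, and DENND1C, an exchange factor for Rab proteins, with changes between 4.11 and 5.05. Beside CEBPE and the other leading genes, the only myeloid marker in the table, CEBPA, was not called (summed level 6.15 and 6.48 against 6.43 and 6.68). The part of other cell types in these changes was not tested.

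The largest fall was that of NPW (chromosome 16, 2059927 to 2070756), which encodes the secreted peptide neuropeptide W. It had 0.709 and 0.518 FPKM in CBAP-KO+GFP and 87.4 and 86.0 in reconstituted cells, a log2 change of -5.77 (SE 0.071, adjusted p = 7.55e-05). BOP1, a factor of ribosome assembly, had 3.52 and 3.59 against 77.5 and 87.3 FPKM. TBX1, a developmental T-box factor, had 2.05 and 2.01 against 47.4 and 50. RAG1 and RAG2, the recombinase that cuts antigen receptor genes, lie beside each other on chromosome 11 (36531922 to 36614706 and 36597124 to 36619829) and fell together. RAG1 had 1.2 and 1.29 FPKM against 31.5 and 31.1, and RAG2 had 1.04 and 1.40 against 27.5 and 29.7, for log2 changes of -3.85 and -3.74. DNTT, which encodes the template-free polymerase TdT of the same reaction, fell as well, with 10.2 and 11.4 against 38.3 and 38.5 FPKM.

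The other leading genes that fell were GPC5, a heparan sulphate proteoglycan, ZNF521, a zinc-finger factor of early progenitors, NETO1, an auxiliary protein of kainate receptors, NDUFA4, C9, a component of complement, BAMBI and FSTL1, a secreted glycoprotein, with changes between -3.89 and -3.19. NDUFA4, a subunit of the respiratory chain, had 13.0 and 13.2 FPKM against 143 and 127, with 20.7 and 19.9 in sh-Ctrl cells. BAMBI, a decoy receptor for TGFβ, had 3.21 and 3.20 against 39.6 and 37.8, with 0.878 and 1.46 in sh-Ctrl cells. The leading genes were chosen for groups that do not overlap, so their separation in the plot of the leading genes is no finding.

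**Figure D2:**
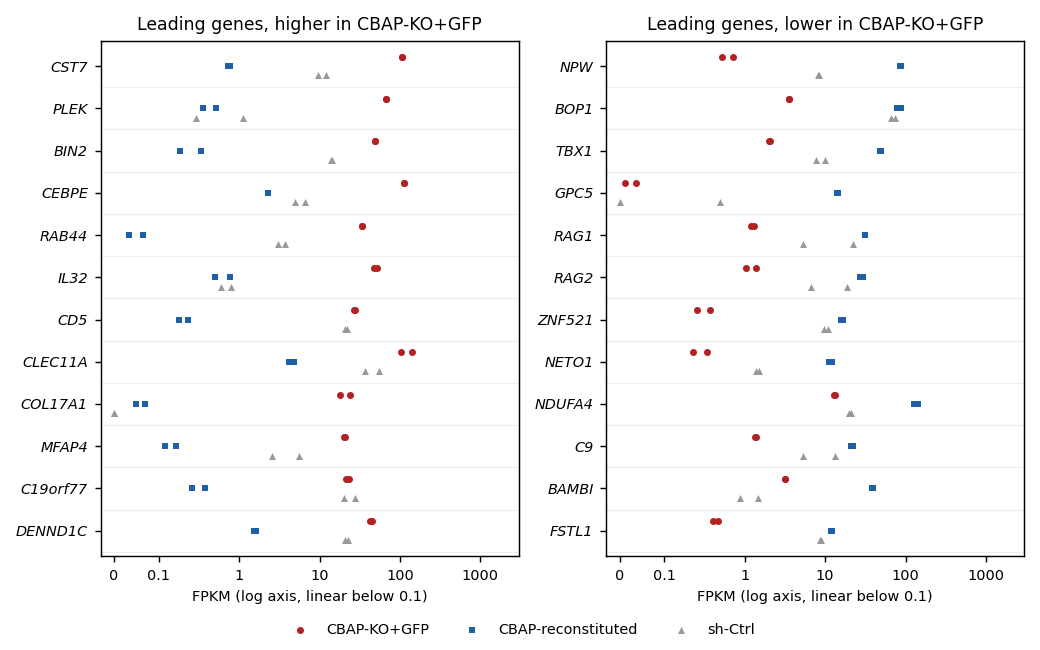
FPKM in each library (log axis, linear below 0.1) of the 12 leading genes in each direction, with CBAP-KO+GFP as red circles, reconstituted cells as blue squares and sh-Ctrl cells as grey triangles, 2 libraries each. For 5 of the 12 genes on the left and 6 of the 12 on the right the sh-Ctrl mean lies nearer to CBAP-KO+GFP.

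Which kind of cells stood apart from other Jurkat cells differed from gene to gene. The mean of the sh-Ctrl libraries, on the log2 scale, lay nearer to CBAP-KO+GFP cells for 5 of the 12 leading genes that rose and for 6 of the 12 that fell. Among all genes called and at least 2-fold apart, it lay nearer to CBAP-KO+GFP for 250 of the 623 that were higher and for 246 of the 544 that were lower. CD5 was one of these, at 20.5 and 21.7 FPKM in sh-Ctrl cells, near the CBAP-KO+GFP level. NPW, at 8.13 and 8.30 in sh-Ctrl cells, lay between both kinds.

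Several T-cell surface proteins were much higher in CBAP-KO+GFP cells. Of 46 tested genes of T-cell receptor signalling 27 were higher (58.7%) and 7 lower (15.2%), with a median log2 change of 0.38. The largest changes were those of the co-receptors and phosphatases, of which 10 of 11 were higher with a median of 2.80, and 7 of the 11 were also at least 2-fold apart. Of 5 NFAT factors and their regulators 4 were higher (median 0.39), and the 1 called lower had a listed 0 in each CBAP-KO+GFP library. The CD3 chains, which carry the signal of the receptor itself, moved less: CD3D had 490 and 502 FPKM against 492 and 494 and was not called, and of 4 chains only CD3G was called. CD3E had 530 and 1022 FPKM in CBAP-KO+GFP and 397 and 384 in reconstituted cells, and with that spread a log2 change of 0.91 was not called (adjusted p = 0.0901).

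CD28, the main costimulatory receptor, had 35.5 and 37.5 FPKM against 2.93 and 2.59, a log2 change of 3.32. PTPN6, the phosphatase SHP-1 that shuts off receptor signals, had 117 and 114 FPKM against 8.05 and 8.56, a change of 3.64. PTPN22, another inhibitory phosphatase, had 18.4 and 17.1 against 0.694 and 0.651. In sh-Ctrl cells CD28 had 24.1 and 29.2 FPKM, PTPN6 90.0 and 129, and PTPN22 12 and 12.1. For these 3 genes the reconstituted libraries were the lowest of the 8. CD2, CD6 and CD7, further surface molecules of T cells, were higher by 2.80, 2.88 and 1.71. PTPN7 had the smallest change of the 11, at 0.03, and was not called.

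**Figure D3:**
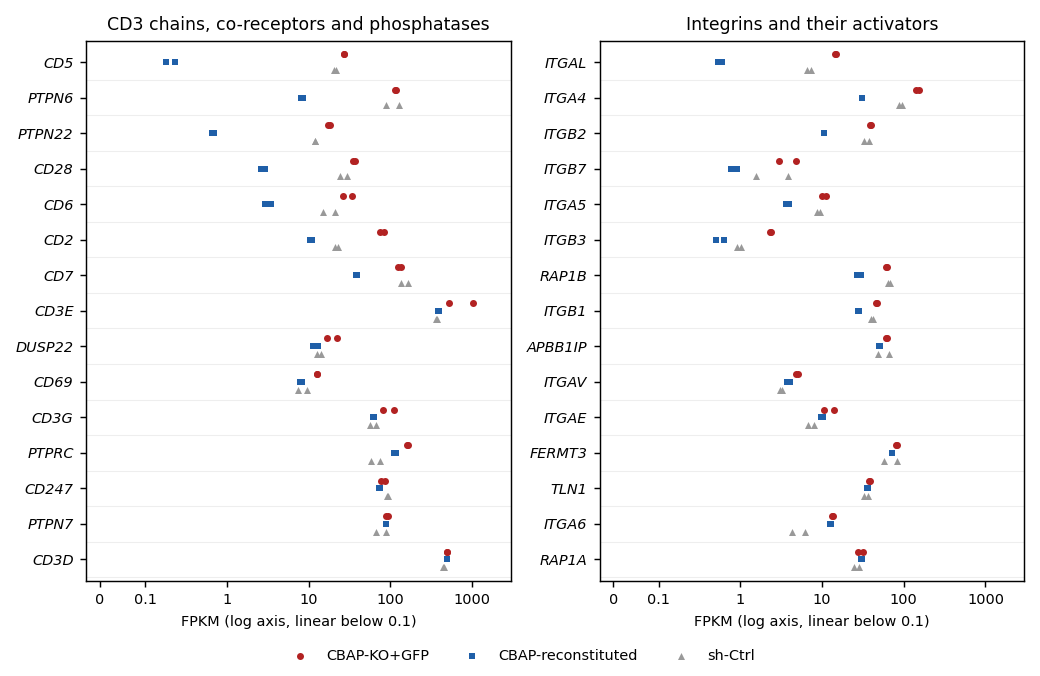
FPKM in each library (log axis) of the CD3 chains, co-receptors and phosphatases (left) and of the integrins and their activators (right), ordered by log2 change, with CBAP-KO+GFP as red circles, reconstituted cells as blue squares and sh-Ctrl cells as grey triangles. The CD3 chains lie close together in all libraries apart from CD3E, while CD5, PTPN6, PTPN22 and CD28 are low in the reconstituted cells.

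Of 6 receptor-proximal kinases 3 were higher and 1 lower, with a median of 0.14. LCK, which starts the signal, had 270 and 272 FPKM against 275 and 279 and was not called, while ZAP70, the kinase it activates, was higher by 0.57 (201 and 194 against 133 and 134). Of 20 adaptors and effectors 9 were higher and 5 lower. SKAP1, an adaptor that links the receptor to integrins, had the largest change, at 16.0 and 16.1 FPKM against 0.226 and 0.527. VAV1, an exchange factor for Rac, was higher by 0.38, and THEMIS, which tunes the signal in thymocytes, was lower by -0.58.

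Adhesion genes followed the same direction. Among 55 migration and adhesion genes 33 were higher (60.0%) and 13 lower (23.6%), with a median log2 change of 0.26, and of 15 integrins and integrin activators 12 were higher and 0 lower (median 0.70). ITGAL, the α chain of LFA-1, had 14.8 and 14.2 FPKM against 0.602 and 0.538, and ITGA4, the α chain of VLA-4, had 155 and 142 against 30.7 and 30.8. ITGB2, the β chain that pairs with ITGAL, was higher by 1.79 and ITGB1, the partner of ITGA4, by 0.70. Chemokine receptors and ligands did not share this lean, with 2 of 5 tested higher and 3 lower (median -0.34). CXCR4, the receptor for the homing chemokine CXCL12, was 1 of those higher, with 350 and 354 FPKM against 162 and 163, a change of 1.11. The largest falls of the list were those of RHOH and ICAM3. RHOH, a small G protein of blood cells that does not hydrolyse GTP, had 56.6 and 55.2 FPKM against 182 and 181. ICAM3, a ligand of LFA-1, had 16.4 and 15.8 against 44.3 and 43.1. In sh-Ctrl cells RHOH had 59.8 and 52.2 FPKM, near the CBAP-KO+GFP level, and ICAM3 had 42.5 and 47.3, near the reconstituted level.

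Cytokine receptors and the kinases and STATs below them were mostly higher, 24 of 34 against 3 lower (70.6% and 8.82%), with a median of 0.37. IL17RA, the shared chain of the IL-17 receptors, had 14.6 and 15.1 FPKM against 3.19 and 2.99, and JAK3, the kinase bound to the common γ chain, had 8.56 and 10.4 against 3.58 and 3.76. IFNAR2 and IL10RB, receptor chains for type I interferon and the IL-10 family, count among the 24 but were listed at 0 in both reconstituted and both sh-Ctrl libraries, with 32.9 and 32.6 and with 12.3 and 12.1 FPKM in CBAP-KO+GFP cells. IFNGR2, a chain of the interferon-γ receptor, was lower by -0.58. Interferon-stimulated genes had no common direction, with 9 of 25 higher and 11 lower: IFITM1 rose by 2.24 and ISG15 fell by 1.28 on the log2 scale.

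Transcription factors of T-ALL were split within the complex that TAL1 builds. TAL1 itself, the driver oncogene of Jurkat, had 61.3 and 57.7 FPKM against 80.7 and 80.1 and was lower by -0.43. Of 7 tested members of its complex 5 were higher, with GATA3 at 0.29, RUNX1 at 0.89 and MYB at 1.07. TCF7, the T-lineage factor TCF-1, had 178 and 181 FPKM against 50.1 and 51.2, a change of 1.81, with 235 and 213 in sh-Ctrl cells. NKX2-1, a homeobox factor that some T-ALL cases activate, had 1.52 and 1.54 FPKM against 17.1 and 17.9, with 1.33 and 2.35 in sh-Ctrl cells. Of 6 tested NOTCH targets 4 were lower, led by DTX1 (-1.17) and HES1 (-1.15), and 1 was higher, HEY1 at 1.13. NOTCH1 itself, at 30.0 and 21.7 FPKM against 19.9 and 18.5, was not called (adjusted p = 0.122).

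Genes of the machinery that makes proteins were mostly lower. Of 73 tested mitochondrial ribosomal proteins 65 were lower (89.0%) and 0 higher, with a median log2 change of -0.69, beside the median of 0.00 over all genes. Of 75 cytosolic ribosomal proteins 58 were lower (77.3%) and 7 higher, with a median of -0.60. Translation factors (31 of 44 lower, median -0.38), RNA polymerase subunits (24 of 31, median -0.48) and aminoacyl-tRNA synthetases (26 of 39, median -0.33) went the same way. Among the mitochondrial ribosomal proteins 9 members, and among the cytosolic ones 10, were also at least 2-fold lower.

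MRPL2 and MRPL21, of the large mitochondrial subunit, had the largest falls among ribosomal proteins of the mitochondria with values in all libraries. MRPL2 had 23.5 and 22.3 FPKM against 59.6 and 56.7, and MRPL21 had 44.3 and 46.5 against 114 and 111. EIF5A, the hypusine-bearing elongation and termination factor, had 337 and 339 against 682 and 698, a change of -1.03. EIF2B3, a subunit of the exchange factor that recharges eIF2, had 8.33 and 8.87 against 25.6 and 25.8. RPL7 (0.748 and 0.910 against 5.76 and 6.33) and RPL39 fell most among cytosolic ribosomal proteins above 0 in every library, and both belong to families with many processed copies, so their values are uncertain.

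Protein quality control moved with it. All 14 core subunits of the proteasome had a log2 change below 0, 13 of them called, and of 43 genes of the whole proteasome 38 were lower (88.4%) and 0 higher, with a median of -0.51. PSMB5, the subunit with chymotrypsin-like activity, had 67.7 and 64.9 FPKM against 173 and 169, and PSMB10, of the immunoproteasome, had 27.1 and 28.1 against 77.6 and 72.1. Of 33 chaperones 28 were lower (84.8%) with a median of -0.57, among them all 8 subunits of the chaperonin TRiC. HSPD1, the mitochondrial chaperonin HSP60, had 168 and 167 FPKM against 383 and 393. HSP90B1, a chaperone of the endoplasmic reticulum, was the 1 member that was higher, by 0.15.

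Mitochondrial energy genes were lower too. Of 75 genes of oxidative phosphorylation 59 were lower (78.7%) and 4 higher (5.33%), with a median of -0.50. Of 37 tested genes listed under complex I 31 were lower and 0 higher, and all 4 subunits of complex II were lower. The complex I list held NDUFA4, which has since been assigned to complex IV. NDUFS4, an accessory subunit of complex I, had 39.1 and 44 FPKM against 96.2 and 98.6, while COX7A2L, which joins respiratory complexes, was higher by 0.45. Of 20 citrate cycle enzymes 15 were lower and 1 higher, with FH, fumarate hydratase, at 54.9 and 57.6 against 115 and 118. GLUL, glutamine synthetase, which sits beside the cycle, went the other way by 1.93, with 299 and 320 FPKM against 80.0 and 81.7.

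**Figure D4:**
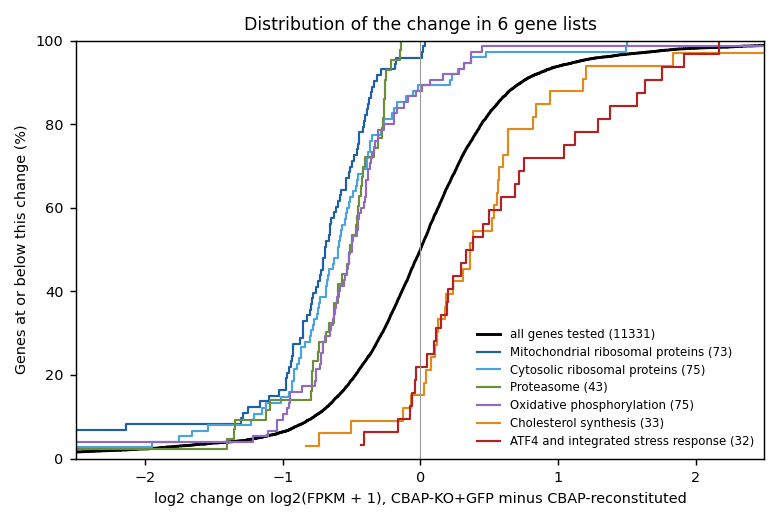
Share of genes (y axis, %) at or below each log2 change on log2(FPKM + 1) (x axis, CBAP-KO+GFP minus reconstituted) for 6 gene lists and for all 11331 tested genes (black). The curves of the mitochondrial and cytosolic ribosomal proteins, the proteasome and oxidative phosphorylation lie left of the black line over most of the range, and those of cholesterol synthesis and the ATF4 list lie right of it.

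MYC targets were nearly all lower, and MYC was lower by less than their median. MYC had 130 and 132 FPKM against 157 and 157, a log2 change of -0.25 (SE 0.020, adjusted p = 0.00163), which became -0.04 and was no longer called after quantile normalization. Of 32 tested MYC targets 31 were lower and 0 higher, with a median of -0.56, GNL3 being the 1 not called, and 26 of these targets had a promoter in the RefSeq table. TERT, the catalytic subunit of telomerase, had 10.4 and 8.94 FPKM against 37.4 and 33.7, NPM1, a nucleolar chaperone, 287 and 294 against 467 and 481, and CDK4, the G1 cyclin-dependent kinase, 64.3 and 60.3 against 129 and 132. Of the other MYC-family genes, MYCN (14.9 and 13.9 against 5.53 and 5.34) and MXD1, a repressive partner of MAX, were higher. In the whole list of 44 MYC and MAX genes 33 were lower and 7 higher (median -0.42). After quantile normalization 27 were lower and 8 higher (median -0.35), beside 3753 of all 11331 genes lower. The targets alone were not counted under that scaling.

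The E-box CACGTG, the sequence that MYC and MAX are known to bind, was searched in the 250 bases before the RefSeq start of transcription. It occurred in 6 of the 26 target promoters (23.1%), against 1772 of all 27305 promoters (6.49%). The list is of known MYC targets, so a larger share was likely whatever these libraries held, and nothing is read from it. The motif reads the same on both strands, and other factors of the same class share it. The windows of CDK4 and SRM, a spermidine synthase with 136 and 132 FPKM against 195 and 194, are shown because both genes were lower and hold the motif, which is in capitals (5′ to 3′ on the gene's strand, RefSeq GRCh38.p14, chr12:57752311-57752560 minus and chr1:11060019-11060268 minus).
CDK4: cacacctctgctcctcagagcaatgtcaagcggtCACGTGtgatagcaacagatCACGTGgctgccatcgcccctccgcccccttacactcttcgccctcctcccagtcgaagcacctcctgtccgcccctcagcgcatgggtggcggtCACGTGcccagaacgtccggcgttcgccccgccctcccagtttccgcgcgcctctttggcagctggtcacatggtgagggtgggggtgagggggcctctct
SRM: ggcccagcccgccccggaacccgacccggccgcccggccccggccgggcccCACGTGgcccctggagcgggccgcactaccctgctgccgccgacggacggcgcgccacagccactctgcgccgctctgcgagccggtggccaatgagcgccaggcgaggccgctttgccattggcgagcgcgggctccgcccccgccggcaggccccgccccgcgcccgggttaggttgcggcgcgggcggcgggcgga
The CDK4 window holds 3 matches and the SRM window 1. A match describes the letters only and says nothing of binding in these cells.

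Glycolysis was lower at several steps. Of 17 tested enzymes from glucose to lactate 11 were lower and 1 higher. In the whole glycolysis list 15 of 27 genes were lower and 4 higher, with a median of -0.17. After quantile normalization 10 were lower and 4 higher (median -0.06), beside 3753 of 11331 genes lower. ENO1, enolase, had 536 and 532 FPKM against 1087 and 1086, a log2 change of -1.02, TPI1, triosephosphate isomerase, had 128 and 127 against 195 and 194, and PFKP, a phosphofructokinase, had 61.8 and 64.6 against 105 and 106. The glucose transporters split, with SLC2A1 (GLUT1) lower by -0.70 and SLC2A3 (GLUT3), the less abundant one, higher by 1.05. ALDOA, aldolase, was lower by -0.25, but by quantile normalization it was higher by 0.14. HIF1A, the hypoxia factor that drives several of these genes, had 34.5 and 36.9 FPKM against 35.1 and 34.8 and was not called (log2 change 0.03, adjusted p = 0.561). Of 14 hypoxia targets 8 were higher and 4 lower, VEGFA, the vascular growth factor, rising from 1.56 and 1.29 to 15 and 14.9 FPKM.

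Lipid genes split by pathway. Of 33 cholesterol genes 24 were higher (72.7%) and 3 lower (9.09%), with a median of 0.36. INSIG1, which holds the sterol sensor in the endoplasmic reticulum, had 225 and 231 FPKM against 63.3 and 63.4. HMGCS1, an early enzyme of the pathway, had 91.2 and 90.6 against 38.9 and 38.8, SREBF1, a master factor of lipid synthesis, had 70.6 and 69.8 against 30.6 and 30.0, and the exporter ABCG1 had 21.1 and 24.7 against 2.35 and 2.64. Of 25 genes of fatty acid synthesis 8 were higher and 9 lower: FASN, the synthase, had 26.8 and 25 FPKM against 49.3 and 47.8, and SLC25A1, the exporter of citrate from mitochondria, 44.9 and 41.5 against 70.1 and 69.5, while ACSL1 and ACSL3, which activate fatty acids, were higher by 1.57 and 1.10. ACLY, ATP citrate lyase, was lower by -0.19, a change that became 0.03 after quantile normalization.

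The ATF4 branch and amino acid uptake were higher. Of 18 tested ATF4 targets 13 were higher and 2 lower, with a median of 0.65, and 7 of the 13 were at least 2-fold apart. ASNS, asparagine synthetase, had 25.1 and 25.5 FPKM against 5.28 and 4.44, a log2 change of 2.17 (SE 0.084, adjusted p = 0.000438). CHAC1, which degrades glutathione, had 20.8 and 20.3 against 5.74 and 6.77, and VLDLR, a lipoprotein receptor, 25 and 24.7 against 5.97 and 5.71. ATF4 mRNA itself was higher by 0.38 (466 and 470 FPKM against 356 and 361), and DDIT3, the stress factor CHOP, was not called. HSPA5, the chaperone BiP of the unfolded protein response, and PYCR1, a proline enzyme, were the 2 that were lower.

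Of 22 amino acid transporters 14 were higher (63.6%) and 4 lower (18.2%). SLC38A5, a glutamine and serine carrier, had 19.0 and 20.4 FPKM against 0.212 and 0.229, and SLC1A4, a carrier of alanine, serine and cysteine, 32.1 and 31.6 against 6.79 and 6.90. MTHFD2, the mitochondrial folate enzyme, had 189 and 194 against 64.9 and 68.6.

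The C/EBP-ATF element, known as the site through which ATF4 acts with C/EBP partners, was searched on both strands of the same promoter windows as TGATGNAA. It occurred in 3 of 16 ATF4 targets with a window (18.8%), ASNS, CHAC1 and HERPUD1, a gene of protein degradation at the endoplasmic reticulum that was higher by 1.29, against 870 of all 27305 windows (3.19%). The windows of ASNS and CHAC1 are shown with the match in capitals because these are the targets of the list that rose most among those holding it (RefSeq GRCh38.p14, 5′ to 3′ on the gene's strand, chr7:97872409-97872658 minus and chr15:40953221-40953470 plus).
ASNS: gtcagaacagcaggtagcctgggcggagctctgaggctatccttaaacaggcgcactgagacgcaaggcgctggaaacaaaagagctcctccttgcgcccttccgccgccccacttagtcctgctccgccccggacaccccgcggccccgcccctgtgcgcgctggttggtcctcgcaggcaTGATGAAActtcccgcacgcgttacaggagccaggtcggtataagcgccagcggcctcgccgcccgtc
CHAC1: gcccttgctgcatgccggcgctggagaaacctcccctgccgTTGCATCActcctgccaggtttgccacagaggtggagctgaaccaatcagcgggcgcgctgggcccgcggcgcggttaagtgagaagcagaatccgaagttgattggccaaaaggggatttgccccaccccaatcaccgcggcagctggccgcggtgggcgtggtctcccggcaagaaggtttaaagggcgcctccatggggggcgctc
The match begins 68 bases before the start in ASNS, on the gene's strand, and 209 bases before it in CHAC1, on the opposite strand. The sterol element, searched as TCACNCCAC, occurred in 1 of 26 cholesterol genes with a window (3.85%), SREBF2, against 239 of all windows (0.875%). These lists too were of known targets or pathway genes, so nothing is read from their shares against all windows.

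The signalling proteins from AKT to mTORC1 differed by role. Of 67 genes 20 were higher (29.9%) and 28 lower (41.8%), with a median of -0.09. Of 8 subunits and partners of the mTOR complexes 6 were lower and 1 higher (median -0.59), and of 23 genes of amino acid sensing 12 were lower and 4 higher (median -0.12), whereas of 16 genes downstream of mTORC1 9 were higher and 3 lower (median 0.22). AKT1 (118 and 115 FPKM against 114 and 116), RHEB (20.4 and 18.7 against 17.5 and 20.1) and MTOR (13.3 and 13.5 against 14.4 and 13.7) were not called, with log2 changes of 0.02, 0.06 and -0.07. TSC2, the subunit that switches off Rheb, was higher by 0.65, with 21.2 and 20.7 FPKM against 13.0 and 13.1. PDCD4, a translation inhibitor that mTORC1 signalling degrades, and ATG13, which starts autophagy, were higher by 1.2 and 1.15, and LAMTOR4, a scaffold of mTORC1 on lysosomes, was lower by -0.89. In the RAS-ERK list 22 of 46 were higher (47.8%) and 13 lower (28.3%): GAB2, a docking protein, had 22.9 and 23.7 FPKM against 0.807 and 0.815, while the feedback inhibitors SPRY1 and DUSP2 were lower by -1.24 and -1.08. Messenger levels do not show phosphorylation.

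Genes of the G1 phase were balanced as a list, with 10 of 26 higher and 9 lower, and differed by role. All 5 tested CDK inhibitors were called higher, with a median log2 change of 0.96, while of 14 RB and E2F proteins and partners 2 were higher and 5 lower and of 7 cyclins and CDKs 3 were higher and 4 lower. CDKN1A (p21) had 7.14 and 7.24 FPKM against 0.996 and 0.954, and CDKN2D (p19) 35.1 and 38.5 against 12.5 and 13.3, while CDKN1C (p57), CDKN1B (p27) and CDKN2C (p18) were higher by 0.96, 0.60 and 0.55. Of 57 replication genes 28 were lower (49.1%) and 6 higher (10.5%), and of 44 mitotic genes 27 were lower (61.4%) and 7 higher (15.9%). CDC20, an activator of the anaphase-promoting complex, had 57.9 and 59.1 against 127 and 126, and CCNB1, cyclin B1, 91.0 and 92.8 against 171 and 169, whereas TOP2A and MKI67, both proliferation markers, were higher by 0.77 and 0.68. After quantile normalization the replication genes no longer leaned one way, with 16 higher and 18 lower.

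Survival genes went both ways. BCL2, the anti-apoptotic founder of its family, had 15 and 12.5 FPKM against 6.75 and 6.53, a log2 change of 0.94 (SE 0.101, adjusted p = 0.00326). The killers BMF and PMAIP1 (NOXA) were higher by 1.84 and 1.24, and BBC3 (PUMA) and BNIP3L were lower by -0.77 and -0.75. Of 28 genes 8 were higher (28.6%) and 13 lower (46.4%). Among 24 FOXO factors and genes linked to them 12 were higher (50%) and 6 lower (25%): TRIB2, a pseudokinase linked to leukaemia, had 63.8 and 54.5 FPKM against 19.3 and 19.7, and KLF2, a factor of T-cell quiescence, 18.6 and 17.7 against 58.1 and 61.8.

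The other lists were mixed. Of 38 lysosomal genes 21 were lower (55.3%) and 12 higher (31.6%). Of 14 genes of HLA class I and peptide loading 6 were higher and 3 lower, B2M rising from 857 and 883 to 1354 and 1428 FPKM. The pentose phosphate pathway (4 higher and 3 lower of 9) and serine and one-carbon metabolism (6 and 7 of 18) lay near the shares of all genes.

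Transcript length, GC content and scaling moved with these values. With genes put into 4 equal bins, the median log2 change was -0.05 in the bin with the shortest transcripts and 0.11 in that with the longest, and 0.09 in the bin with the lowest GC content and -0.12 in that with the highest. With the median of genes of like length and GC content subtracted, the medians were -0.61 for mitochondrial ribosomal proteins, -0.52 for cytosolic ones, -0.46 for the proteasome, -0.44 for oxidative phosphorylation, 0.46 for cholesterol synthesis and 0.39 for the ATF4 list. Quantile normalization brought larger shifts: the medians became -0.53 for mitochondrial and -0.36 for cytosolic ribosomal proteins, -0.30 for the proteasome, -0.28 for oxidative phosphorylation, -0.35 for chaperones and -0.18 for translation factors. The counts then were 62 of 73, 49 of 75, 34 of 43, 50 of 75, 24 of 33 and 24 of 44 lower, still against 3753 of 11331 for all genes. The part of the scaling in these values was not tested further.

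The shRNA set gave a second look at the leading genes, through the difference between the change in CBAP-KO+GFP against reconstituted cells and that in sh-CBAP against sh-Ctrl cells. This difference was called (limma interaction, Benjamini-Hochberg) for all 12 leading genes that rose and for 10 of the 12 that fell. The leading genes were chosen by the size of their change in the first set, which is a term of this difference, so nothing is read from that count against the 34.6% of all genes. The change in the shRNA set had the same sign for 6 of the 12 that rose and 10 of the 12 that fell. In that set TMEM102 was lowered but not lost, at 2.69 and 2.89 FPKM in sh-CBAP against 4.07 and 4.74 in sh-Ctrl cells. RAG1 and C9 were the 2 without a called difference (adjusted p = 0.172 and 0.0517).

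IL32 moved in both sets. It went from 0.8 and 0.591 FPKM in sh-Ctrl to 89.7 and 127 in sh-CBAP cells, a log2 change of 5.99 that exceeded its 4.95 in the CRISPR/Cas9 set (difference -1.04, adjusted p = 0.0271). SLC38A5 did so as well, from 0.738 and 0.743 to 14.3 and 17.9 FPKM, and PLEK to a lesser extent, from 0.294 and 1.12 to 7.48 and 6.19. NPW fell in both, from 8.13 and 8.30 to 1.02 and 2.44. TRIB2, with 16.0 and 22.4 FPKM in sh-Ctrl and 51.0 and 35.8 in sh-CBAP cells, had no called difference between the sets (0.41, adjusted p = 0.337), and neither had FASN, TPI1 and MYC. CST7, BIN2, CEBPE, RAB44 and CD5 had log2 changes between -0.07 and 0.96 with the shRNA, and their differences between the sets were 5.62, 4.35, 4.29, 5.05 and 4.63.

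Counts for whole lists were added after seeing the data. A list's change in the CRISPR/Cas9 set is a term of this difference, and most lists named here were described above for that change. Nothing is therefore read from their counts against the shares of all genes. For 24 of 33 cholesterol genes the difference was called above 0 and for 1 below, beside 18.8% and 15.8% of all genes, with a median change of 0.36 in the CRISPR/Cas9 set and -0.54 in the shRNA set. HMGCS1 shows this: 91.2 and 90.6 FPKM in CBAP-KO+GFP against 38.9 and 38.8, but 24.8 and 35.5 in sh-CBAP against 88.9 and 74.9 in sh-Ctrl cells. The difference was called below 0 for 44 of 75 cytosolic and 44 of 73 mitochondrial ribosomal proteins, 26 of 43 proteasome genes and 37 of 75 genes of oxidative phosphorylation, with medians in the shRNA set of 0.01, -0.07, -0.06 and -0.11. For glycolysis it was called above 0 for 4 and below 0 for 6 of 27, with medians of -0.17 and -0.21.

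Genes with a listed 0 are given apart, since a 0 here can be a failed estimate. Of the tested genes 489 had at least 1 listed 0 among the 4 libraries, and 309 of these were listed at 0 in only 1 library of a pair, 285 of them in a CBAP-KO+GFP library. DDX5, an RNA helicase every cell uses, was listed at 0 in both reconstituted libraries and in 1 CBAP-KO+GFP library but had 542 FPKM in the other, HNRNPD had 0 and 446 against 460 and 463, and ITM2B 290 and 0 against 147 and 153. In CBAP-KO+GFP cells 111 genes were listed at 0 in both libraries and above 0 in both reconstituted ones, led by MRPL20, with 235 and 227 FPKM in reconstituted and 146 to 171 in the shRNA libraries, followed by SCARNA27, KIAA0101 and SCAMP3. In the other direction there were 69, led by NACA (418 and 397), PTPRCAP (236 and 236), SNRPD2 (185 and 218) and PPP6R1 (133 and 137). In the shRNA libraries PTPRCAP had 162 to 214, SNRPD2 255 to 323 and PPP6R1 120 to 156 FPKM. Others of these genes had listed zeros there too. NACA had 0 and 481 in sh-Ctrl and 0 and 459 in sh-CBAP libraries. SCAMP3 had 0 and 73.9 in sh-Ctrl and 0 in both sh-CBAP libraries, and KIAA0101 had 74.5 and 81.0 against 66.5 and 0. The called counts and list counts above include genes with a listed 0: with all of them left out, 552 genes were higher and 417 lower by at least 2-fold.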

How the data were processed

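RNA was sequenced from Jurkat cells as paired ends on an Illumina HiSeq. Alignment by the authors was to hg19, with TopHat, and Cuffdiff gave FPKM values per gene, and these deposited FPKM values were used as given. The submitters' processing notes also name Bowtie, CASAVA 1.8 and Cufflinks, and the annotation is not given in the sources used here. Fragment counts were not used here, so depth and its precision are unknown. FPKM summed to 383898 and 392806 in CBAP-KO+GFP and to 431057 and 434742 in reconstituted cells, with 767, 820, 606 and 623 listed zeros.

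Genes whose FPKM averaged 1 or more in the 4 libraries were tested on log2(FPKM + 1) with limma 3.58.1 (R 4.3.3), empirical Bayes with a trend and Benjamini-Hochberg adjustment, called at an adjusted p under 0.05, with 2 residual degrees of freedom. The interaction with the shRNA set came from a fit of all 8 libraries with a mean for each condition. Gene lists are given as counts and medians with no set test. The members and lists were chosen with earlier results of these data known. Named were TMEM102, 23 genes of the study's topics, the 12 leading genes by size of change each way (above 0 in all 4 libraries, groups apart, mean FPKM of at least 5 in the higher group), up to 2 members per list and direction, and the 5 highest genes of each pattern of listed zeros. Further list members were named after their values were seen, and a few genes that the rule names are not reported here. The fit was tested on simulated data.

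Promoters are the 250 bases before the RefSeq start (GRCh38.p14), and positions come from GENCODE on GRCh37, which is hg19. Replicate numbers did not pair the libraries. Alternatives were pseudocounts of 0.1 and 0.5, other filters, 2 other scalings, listed zeros left out, all 8 libraries in the fit, no trend, a robust trend, a replicate block and each library left out, and, chosen after seeing the data, a length and GC subtraction and alternatives of the interaction. Tables and plots were made with Python 3.11.15, numpy 2.4.6, pandas 2.3.3 and matplotlib 3.10.9.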

Additional observations from a re-analysis of the deposited data

Results flagged for a closer look

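Of the 24 leading genes 22 changed differently in the CRISPR/Cas9 set (CBAP-KO+GFP against reconstituted) and in the shRNA set (sh-CBAP against sh-Ctrl), by the limma interaction term, which was called for 34.6% of all genes. These genes were chosen by the size of their change in the first set, so a called difference was largely fixed by the choice, and the count is a description. The values below are the log2 change of the first set minus that of the second. For the genes that rose they were 5.62 for CST7, 3.33 for PLEK, 4.35 for BIN2, 4.29 for CEBPE, 5.05 for RAB44, 4.63 for CD5, 4.18 for CLEC11A, 4.35 for COL17A1, 4.87 for MFAP4, 4.30 for C19orf77 and 4.37 for DENND1C. For IL32, which rose in both sets and further in the shRNA set, the difference was -1.04. For the genes that fell they were -3.96 for NPW, -4.13 for BOP1, -3.31 for TBX1, -3.60 for GPC5, -3.12 for RAG2, -3.25 for ZNF521, -3.82 for NETO1, -3.79 for NDUFA4, -3.17 for BAMBI and -2.77 for FSTL1. COL17A1 was listed at 0 in every shRNA library, and GPC5 in all but the second sh-Ctrl library (0.497 FPKM). Their differences therefore mostly restate the change in the first set. The sets also differ in line and in the method used against CBAP. The shRNA left TMEM102 at 2.69 and 2.89 FPKM, against 4.07 and 4.74 in sh-Ctrl cells. The part of line, method or remaining CBAP was not tested.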

How the results depend on the processing

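All 24 leading genes kept their direction and call under the 16 alternatives. They were chosen for large, called changes with groups apart, so this was likely from the start and nothing is read from it. Of the 176 named genes with alternatives, these 24 among them, 149 kept both. The called genes numbered 5208 to 8103 with 1 library left out, those higher 2456 to 4001. The fewest came without a reconstituted library, where the lone sample is assumed to vary like the other group. With a mean FPKM of at least 5, 392 genes were higher and 328 lower by at least 2-fold. The replicate numbers of the labels did not pair the libraries (correlation of deviations 0.0064 over 10842 genes), and with the replicate block 7257 genes were called. Of the list medians 27 of 33 kept their sign throughout; 21 were below 0, and 18 to 22 under the alternatives. The interaction was called for 20 to 23 of the 24 leading genes.

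Some small changes turned direction. With equal medians HIF1A became -0.040, AKT1 -0.048 and RHEB -0.011. With quantile normalization ALDOA became 0.14, ACLY 0.031 and LCK 0.22. Leaving out 1 library gave HIF1A -0.017 to 0.076 and RHEB -0.035 to 0.15. ITM2B, listed at 0 in 1 CBAP-KO+GFP library, went from -7.24 to 0.94, the higher value without that library. The cause was not tested for the other genes.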

Other observations

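In the shRNA libraries the recombination genes varied widely between the libraries of a condition. RAG1 had 22.1 and 5.34 FPKM in sh-Ctrl and 1.05 and 5.9 in sh-CBAP cells, RAG2 18.6 and 6.64 against 3.46 and 13.2, and DNTT 65 and 17.5 against 9.62 and 31.1. All 3 were highest in the first sh-Ctrl library and lowest in the first sh-CBAP library, and KLF2 had the opposite order, with 15.9 and 40.4 against 71.2 and 24.2. In the CRISPR/Cas9 set the libraries of a kind lay close together for the same genes.

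Of the 489 tested genes with at least 1 listed 0, a few had zeros that split by CBAP in the same way in both sets. There were 6 genes at 0 in both reconstituted and both sh-Ctrl libraries and above 0 in both CBAP-KO+GFP and both sh-CBAP libraries, IFNAR2 and IL10RB among them. The reverse held for 2 genes, KRT18 and SCARNA27. A listed 0 can be a failed estimate, so no effect of CBAP is read from these counts.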
